A study of Homo sapiens with 6 samples.

Results

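Outside centromeres, 10017 regions on chromosomes 1 to 22 carried a CENP-A peak in a single library of DNAJC9-depleted cells, out of 14500 such regions in all. They were chosen by the peak calls themselves. Overlapping peaks of both siDNAJC9 CENP-A libraries were merged, and a region was kept if it held peaks of one library only and had no base in the centromeric window of its chromosome. The window was the 5-Mb stretch with the greatest length under peaks of siNeg CENP-A replicate 1. Of the members, 6173 were called in siDNAJC9 replicate 1 only and 3844 in siDNAJC9 replicate 3 only, and 4483 further regions were called in both. Members were thus 69.1% of the noncentromeric regions, with 42.6% from replicate 1 only and 26.5% from replicate 3 only. With the regions that reach into the windows, both lists merged to 15151 regions on these chromosomes, and all 6 lists of the series, chromosome X included, merged to 25991.

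CENP-A is the histone H3 variant that marks centromeres, where it provides the base on which the kinetochore assembles. When it is overexpressed or its chaperones fail, it can enter chromatin along the chromosome arms, and such ectopic CENP-A has been linked to defects of chromosome segregation. DNAJC9 is a heat shock co-chaperone that binds H3–H4 and takes part in their supply. CUT&RUN maps such a protein by tethering a nuclease to an antibody on it, so that the DNA it occupies is cut out and sequenced.

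RPE1-Tet-GFP-CENP-A cells were used, made from hTERT-immortalized, near-diploid retinal pigment epithelial cells, in which DOX turns on a GFP-tagged CENP-A. All groups, controls included, therefore expressed extra CENP-A: DOX was given at 1 µg/ml for 48 h after 48 h of siRNA transfection with the negative control siRNA (siNeg) or siDNAJC9. For each siRNA there are 2 CENP-A libraries (replicates 1 and 3, biological repeats according to the series text) and 1 IgG library (replicate 2). The antibody recognizes CENP-A as such, so tagged and native protein cannot be told apart here. The lists hold peak positions only, in whole kb, on T2T-CHM13v2.0, and neither the depletion of DNAJC9 nor the depth of a library can be read from them. On chromosomes 1 to 22 they held 11257 and 8902 peaks for siDNAJC9 CENP-A replicates 1 and 3, 1266 and 810 for siNeg CENP-A replicates 1 and 3, 6815 for siDNAJC9 IgG and 4087 for siNeg IgG. A region missing from a list had no called peak there, which does not show that it had no reads. The names of the lists give a further IgG library of the same siRNA as the common control of all 3 of its libraries, which was not analysed here.

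At the limit of the rule, 84 members touched a peak of the other library without sharing a base, 122 lay 1 kb away from it and 173 lay 2 kb away. On the other side, 45 regions counted as held by both libraries because their peaks shared 1 kb, 58 shared 2 kb and 98 shared 3 kb, against a median of 6 kb over all regions held by both. Among the members that touched, the widest was 18 kb on chromosome 6 from 45259001 to 45277000, in replicate 1 only. The widest in replicate 3 only was 14 kb on chromosome 3 from 65611001 to 65625000. Just outside the rule stood 22 kb on chromosome 10 from 74910001 to 74932000, 20 kb on chromosome 13 from 108466001 to 108486000 and 19 kb on chromosome 7 from 95604001 to 95623000, where the peaks of both libraries met in 1 kb.

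Each member was a single peak, and most were narrow. The median width was 6 kb in replicate 1 only (interquartile range 5 to 8 kb, widest 28 kb) and 5.5 kb in replicate 3 only (5 to 7 kb, widest 19 kb). The narrowest peak of every list spanned 5 kb. This smallest width made up 2502 members of replicate 1, or 40.5% (95% Wilson interval 39.3 to 41.8), and 1922 members of replicate 3, or 50% (48.4 to 51.6). These intervals, like those that follow, cover counting error only. Widths of 5 to 9 kb took 95.3% of the members of replicate 1 and 98.0% of those of replicate 3. The counts dropped sharply beyond 9 kb: 9.02% of the replicate 1 members spanned 9 kb and 1.80% spanned 10 kb, and in replicate 3 these were 5.46% and 0.832%. Together the members covered 63.8 Mb, with 40.4 Mb in replicate 1 only (1.45% of the 2786 Mb outside the windows) and 23.4 Mb in replicate 3 only (0.839%), beside 45.1 Mb (1.62%) in regions held by both.

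In the same libraries, peaks in regions held by both were wider. Their median was 8 kb in replicate 1 and 7 kb in replicate 3, the 5-kb width made up 14.6% and 21.2% of them, and 25.5% and 15.4% spanned 10 kb or more. Among members, 4.67% in replicate 1 and 1.98% in replicate 3 reached 10 kb. In both libraries the share of noncentromeric peaks that the other library did not call fell with each step in width. It was 79.1% (77.7 to 80.5) for 5-kb peaks of replicate 1, 50.3% (47.8 to 52.8) at 8 kb, 24.1% (20.9 to 27.5) at 10 to 11 kb and 2.88% (0.986 to 8.14) from 20 kb on, where 3 of 104 peaks were members. For replicate 3 it was 66.5% (64.8 to 68.2) at 5 kb, 30.7% (28.1 to 33.5) at 8 kb and 12.6% (9.64 to 16.4) at 10 to 11 kb. From 20 kb on it was 0 of 37 peaks, which allows a share of up to 8.11% by the limit of 3 counts and 9.41% by the Wilson interval. A wider stretch also meets a peak of the other list more easily. For comparison, the share was computed for all places, meaning every position of the same width at 1-kb steps on the same chromosome outside the window. Of such places, 96.5% at 5 kb and 90.3% from 20 kb on were free of replicate 3 peaks, and 95.3% and 87.7% were free of replicate 1 peaks. The fall over these widths in the lists was thus much steeper than that of the places. Because the calls of the same lists chose the members, these widths are given without a test.

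**Figure D1:**
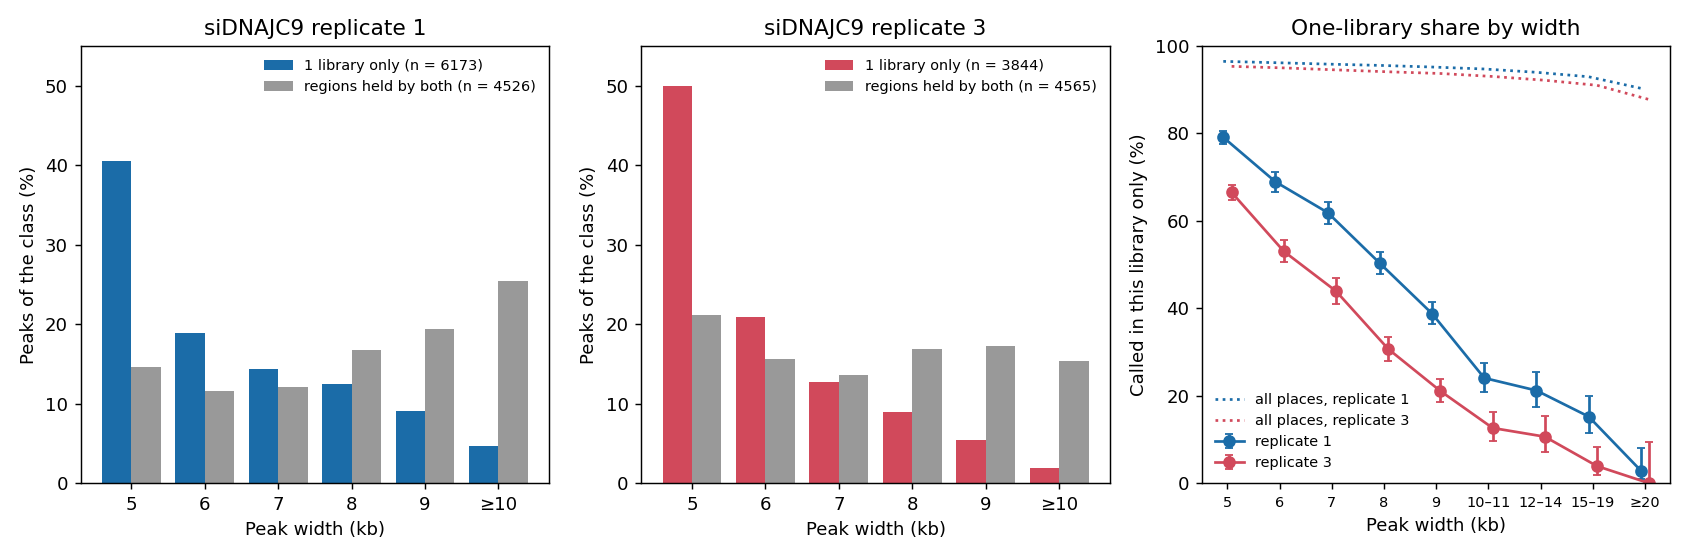
Widths of noncentromeric siDNAJC9 CENP-A peaks. Left and middle panels give the percentage of peaks (y axis) at each width in kb (x axis) for peaks called in that library only and for peaks in regions held by both; the right panel gives the percentage of peaks of each width that the other library did not call, with 95% Wilson intervals, and as dotted lines the percentage of all places of those widths free of the other library's peaks. The share falls from 79.1% at 5 kb to 2.88% from 20 kb on in replicate 1 and from 66.5% to 0 in replicate 3, while the dotted lines stay at or above 87.7%.

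The widest members stood near peaks of the other library in replicate 3 but less near in replicate 1. The widest of all, 28 kb in replicate 1 on chromosome 2 from 36363001 to 36391000, lay 1 kb from a replicate 3 peak. It was followed by 23 kb on chromosome 1 from 60836001 to 60859000 and 21 kb on the same chromosome from 61032001 to 61053000, with the nearest replicate 3 peaks 49 and 70 kb away. A member of 19 kb on chromosome 13 from 106585001 to 106604000 lay 80 kb away, and another of 19 kb on chromosome 21 from 33180001 to 33199000 lay 58 kb away. None of these 5 held a base of any siNeg CENP-A or IgG peak. In replicate 3 the widest member spanned 19 kb on chromosome 18 from 57993001 to 58012000, lay 3 kb from a replicate 1 peak and had 5 kb under a siDNAJC9 IgG peak. The next 4 were 17 kb on chromosome 1 from 77896001 to 77913000, 17 kb on chromosome 10 from 96100001 to 96117000, 16 kb on chromosome 11 from 128526001 to 128542000 and 15 kb on chromosome 2 from 37692001 to 37707000. They lay 2, 2, 6 and 4 kb from the nearest replicate 1 peak and held no base of the other 4 lists. All 5 of them had a further replicate 3 peak within 17 kb.

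Members lay closer to peaks of the other library than places along the chromosome did. The median distance, edge to edge, was 60 kb in replicate 1 only (interquartile range 20 to 159 kb) and 49 kb in replicate 3 only (16 to 131 kb). For all places of the same widths free of peaks of the other library it was 177 kb (58 to 476) and 145 kb (46 to 408). Within 10 kb of a replicate 3 peak lay 908 of the members of replicate 1, or 14.7% (13.8 to 15.6), against 6.30% of places. Within 10 kb of a replicate 1 peak lay 674 of the members of replicate 3, or 17.5% (16.4 to 18.8), against 7.83% of places. The ratio of members to places was 1.08 and 1.37 for members that touched, 2.29 and 2.32 within 5 kb, 2.34 and 2.24 within 10 kb, 1.76 and 1.67 within 100 kb, and 1.11 and 1.09 within 1000 kb, for replicates 1 and 3 in that order. The list of replicate 1 is the longer, so a place is nearer to one of its peaks than to one of replicate 3. When places were limited to the 5-Mb bin of each member, the ratios within 10 kb were 1.87 and 1.81. All places include stretches without a peak, among them 15 bins of 5 Mb with no siDNAJC9 CENP-A region. Places limited to the bin of each member leave such bins out, but not shorter empty stretches. Whether these stretches are satellite DNA cannot be read from the lists. No test was made on these distances, since calls in both libraries chose the members.

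**Figure D2:**
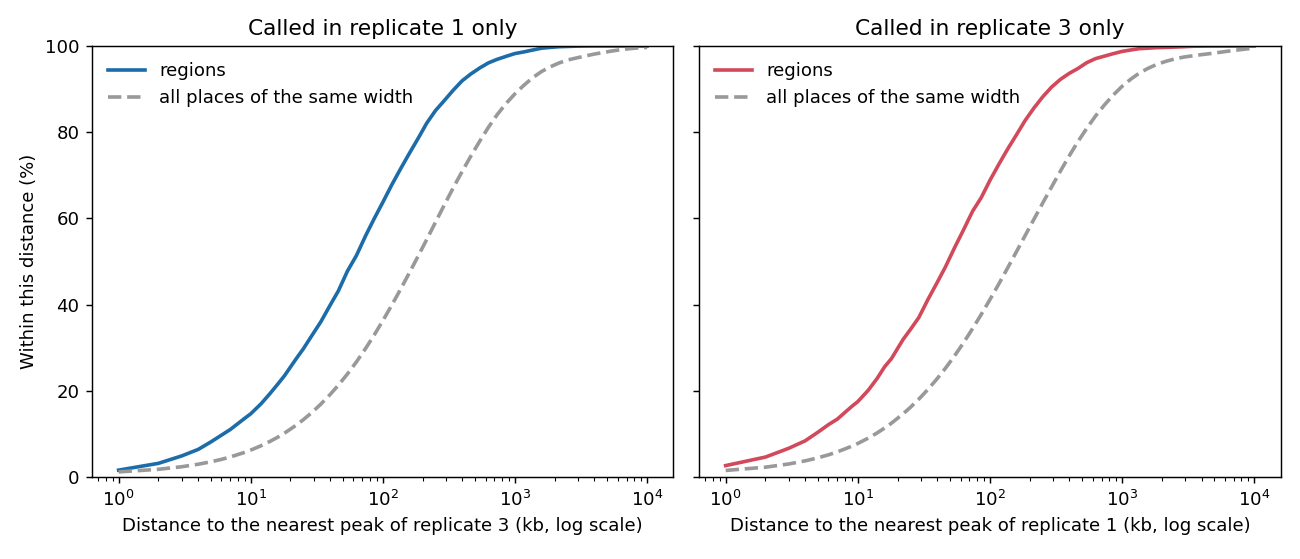
Percentage of members (solid) and of all places of the same width free of the other library's peaks (dashed) within a given distance of the nearest peak of the other siDNAJC9 library (y axis, %; x axis, kb on a log scale), for members called in replicate 1 only (left) and in replicate 3 only (right). Both solid curves lie to the left of the dashed ones, with medians of 60 and 49 kb against 177 and 145 kb.

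Distances to the own library were of the same order. The median distance to the next peak of the same library was 46 kb in replicate 1 only and 66 kb in replicate 3 only. No member lay closer than 2 kb to another peak of its own library, whereas 42 members of each library touched the other one. Members with no other peak of either siDNAJC9 CENP-A library within 500 kb numbered 120 (1.94%) in replicate 1 and 97 (2.52%) in replicate 3.

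In order along the chromosomes, the region nearest to a member belonged to each class about as often as regions in general did. For the members of replicate 1, the nearest noncentromeric region was another replicate 1 member in 42.2% (41.0 to 43.4), a replicate 3 member in 26.9% (25.8 to 28.0) and a region held by both in 30.9% (29.8 to 32.1). Over all 14500 regions these classes made up 42.6%, 26.5% and 30.9%. For the members of replicate 3, the nearest was a replicate 1 member in 42.2% (40.6 to 43.8), another replicate 3 member in 27.7% (26.3 to 29.2) and a region held by both in 30.1% (28.6 to 31.5). All 6 shares lay within their counting intervals of the overall mix. Regions held by both differed from this mix, with one of their own kind as the nearest in 36.6% (35.3 to 38.1), above 30.9%. Their nearest was a replicate 1 member in 40.2% (38.8 to 41.7) and a replicate 3 member in 23.1% (21.9 to 24.4). Both shares lay below those over all regions. The longest uninterrupted series of replicate 1 members counted 11, on chromosome 2 from 151684001 to 152811000, and that of replicate 3 members counted 6, on chromosome 6 from 35737001 to 36734000.

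Within 10 kb, the other library's peak next to a member was itself a one-library call about as often as that library's peaks were overall. Of the 506 members of replicate 1 within 5 kb of a replicate 3 peak, 255 (50.4%, 46.1 to 54.7) were next to a replicate 3 member rather than a region held by both. In the other direction this held for 252 of 402 (62.7%, 57.9 to 67.3). Over all noncentromeric peaks, 45.7% of replicate 3 and 57.7% of replicate 1 were one-library calls. Within 10 kb the shares were 45.4% (42.2 to 48.6) and 58.9% (55.1 to 62.6), and within 50 kb they were 42.7% (40.9 to 44.5) and 56.9% (54.7 to 59.1). The intervals within 10 kb held the overall values, while those of both replicates within 5 kb lay above them and that of replicate 1 within 50 kb lay below.

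The most distant members were single narrow peaks, mostly near chromosome ends or on the short arms of acrocentric chromosomes. In replicate 3, a 5-kb member on chromosome 13 from 5517001 to 5522000 lay 10.3 Mb from any other siDNAJC9 CENP-A peak of either library. A 5-kb member on chromosome 14 from 5918001 to 5923000 lay 4.17 Mb from the nearest replicate 1 peak, and it was fully under a peak of siNeg CENP-A replicate 3. The other 3 were on chromosome 21 from 6305001 to 6311000, chromosome 16 from 727001 to 734000 and chromosome 22 from 50652001 to 50657000, at 3.605, 3.13 and 3.05 Mb. In replicate 1, the 5 most distant members all spanned 5 kb, on chromosome 21 from 2695001 to 2700000, chromosome 13 from 54756001 to 54761000, chromosome 1 from 2872001 to 2877000 and chromosome 7 from 185001 to 190000 and from 156267001 to 156272000. They lay 3.605, 3.37, 3.17, 2.71 and 2.63 Mb from a replicate 3 peak. On chromosome 21 the most distant member of replicate 1 and that of replicate 3 were each other's nearest call. Of these 10 members, that on chromosome 16 had 5 kb under a siDNAJC9 IgG peak and that at the start of chromosome 7 had 4 kb.

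Members were found on all 22 autosomes, densest on chromosome 10 and sparsest on chromosome 19 in both libraries. Per 5 Mb outside the window, chromosome 10 held 15.7 members of replicate 1 and 11.5 of replicate 3, and chromosome 19 held 3.97 and 3.0. The median chromosome held 10.3 and 6.18. Many calls on chromosome 10 were not particular to DNAJC9-depleted cells. By the same rule, control cells had 423 and 120 one-library regions in replicates 1 and 3, and 353 and 95 without chromosome 10. For siDNAJC9 the members went from 6173 and 3844 to 5767 and 3547. Chromosome 10 holds 129.6 of the 2786 Mb outside the windows. Chromosomes ranked alike in both libraries (Spearman's rho 0.98 over 22 chromosomes) and much as in regions held by both (rho 0.91 and 0.89), with the control library and the genome in common to all these values. Members of replicate 1 outnumbered those of replicate 3 on every autosome, from 1.20 times on chromosome 20 to 1.78 times on chromosome 7.

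The share of regions called in one library differed more between small chromosomes than between large ones. It ran from 63.5% (55.7 to 70.6) on chromosome 21 to 85.9% (77.3 to 91.6) on chromosome 19, where 79 members stood beside 13 regions held by both. Chromosome 22 followed with 80.3% (72.4 to 86.4) and chromosome 16 with 77.2% (71.3 to 82.2), beside a median of 69.4%. On chromosomes 19, 22, 16, 17 and 1 the lower end of the interval lay above the share over all autosomes. On chromosome 3 (65.5%, 62.7 to 68.1) and chromosome 10 (66.3%, 63.4 to 69.04) the upper end lay below it. Per 5 Mb, chromosomes 19, 22, 16 and 17 held between 1.15 and 4.93 regions called in both libraries. Chromosome 1 held 7.67, and the median was 7.51. Such regions enter the denominator of the share, so the share must in part be higher where they are few. Chromosome 20 held 4.42, and its one-library share was 72.9% (66.3 to 78.6), with the value over all autosomes inside the interval. Chromosomes share the same libraries, and the shares were not tested.

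**Figure D3:**
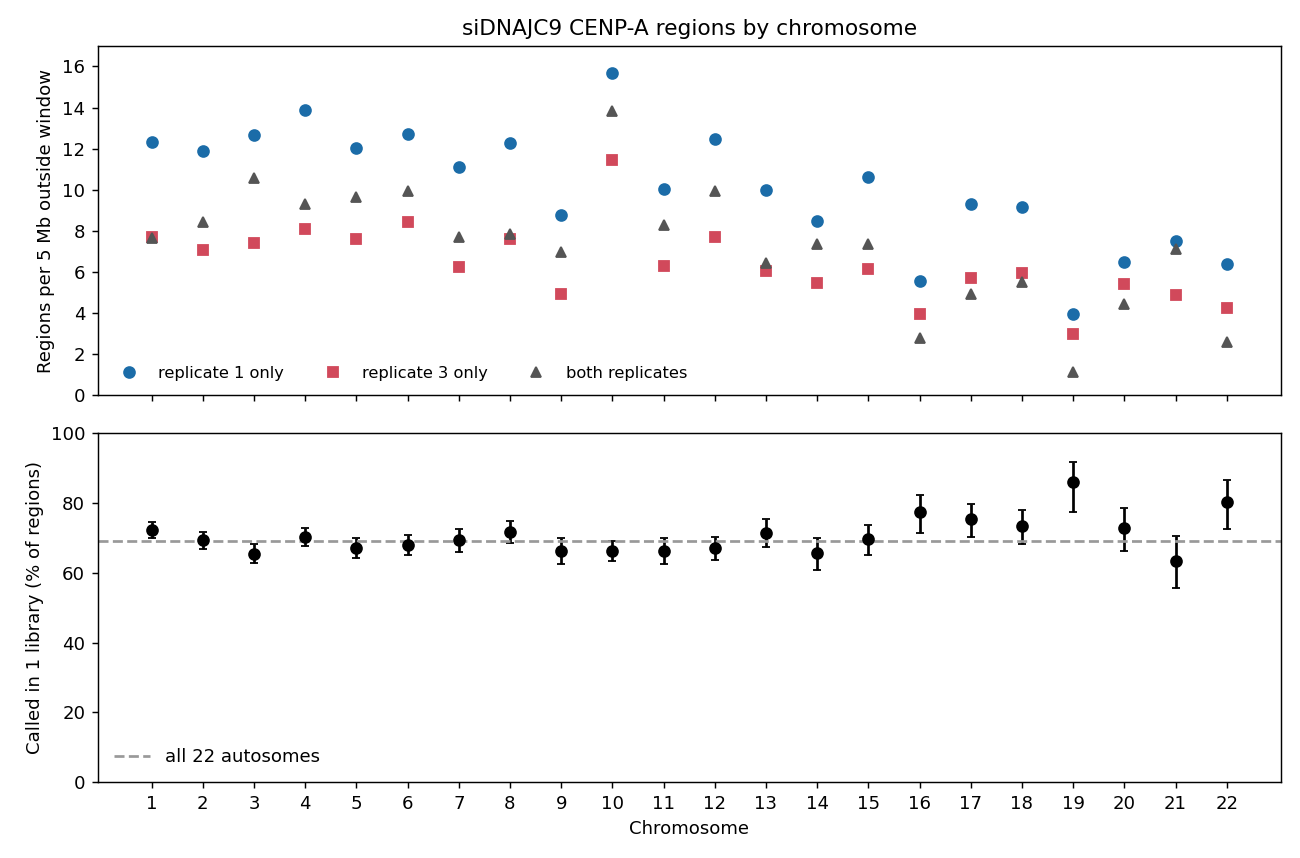
Upper panel, regions per 5 Mb outside the centromeric window (y axis) on each autosome (x axis) for members of replicate 1, members of replicate 3 and regions held by both. Lower panel, percentage of all noncentromeric regions of each chromosome that were called in one library, with 95% Wilson intervals and the value over all autosomes (69.1%) as a dashed line; chromosome 19 is lowest in density and highest in this share.

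Within chromosomes, members were spread over nearly all parts outside the windows. Of 556 bins of 5 Mb, 534 held a member of replicate 1 and 528 a member of replicate 3, with medians of 10 and 6 per bin. Across bins the counts of both sets of members rose together (Spearman's rho 0.68), and each rose with the number of regions held by both (rho 0.77 for replicate 1 and 0.67 for replicate 3). These bins share libraries and control. In the 134 bins with 0 to 2 regions held by both, the median was 4 members of replicate 1 and 2 of replicate 3. In the 135 bins with 12 or more, it was 17 and 10. The share of regions called in one library went the other way, from 87.9% to 62.1%, as it must in part, because regions held by both enter its denominator. In 30 bins, 159 members stood without any region held by both. The 3 bins with the most members were all on chromosome 10, from 90 to 95 Mb with 29 and 23 members of replicates 1 and 3, from 60 to 65 Mb with 28 and 23, and from 75 to 80 Mb with 29 and 20.

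**Figure D4:**
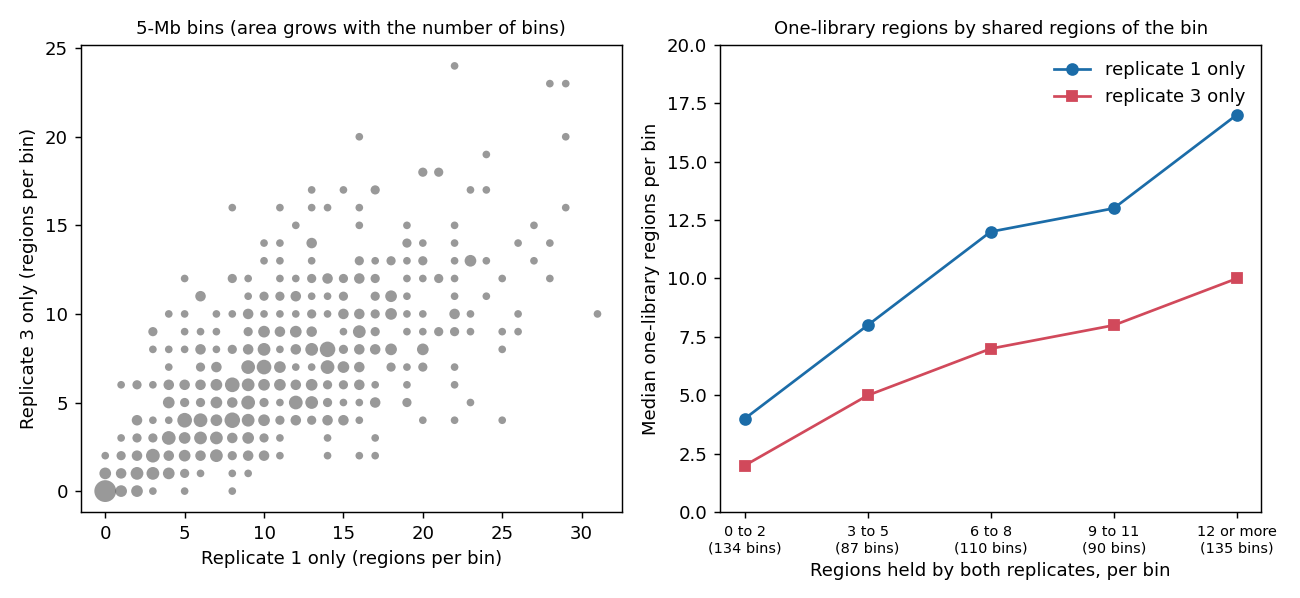
Members per 5-Mb bin outside the windows. The left panel sets the members of replicate 1 (x axis) against those of replicate 3 (y axis) over 556 bins, with larger points for more bins; the right panel gives the median number of members per bin by the number of regions held by both in that bin, rising from 4 to 17 for replicate 1 and from 2 to 10 for replicate 3.

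Near the centromeric windows and the chromosome ends, members were sparser than elsewhere. The 5 Mb on either side of the windows, 7.90% of the sequence outside them, held 4.83% (4.32 to 5.39) of the replicate 1 members and 5.85% (5.15 to 6.64) of the replicate 3 members, beside 5.20% of the regions held by both. Of all regions in these flanks, 69.2% (65.8 to 72.4) were called in one library, against 69.1% elsewhere. The 5 Mb next to the chromosome ends, also 7.90% of the sequence, held 3.27% and 3.41% of the members and 2.39% of the regions held by both. There, 75.7% (71.5 to 79.5) of the 440 regions were called in one library, against 68.9% elsewhere.

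To see how many members lay where IgG libraries were called too, both IgG lists were overlapped with at least 1 bp. The siDNAJC9 IgG list, which the choice of members did not use, was met by 271 members of replicate 1, or 4.39% (3.91 to 4.93), and by 184 of replicate 3, or 4.79% (4.16 to 5.51). Over all 14500 regions the share was 4.87%. Places of the same widths met it in 2.69% and 2.67%, so that members met it 1.63 (1.45 to 1.83) and 1.79 (1.55 to 2.06) times as often. For regions held by both, which are wider, the share was 5.60% against 3.51% of places, or 1.59 times (1.41 to 1.80). The ratios of members and of regions held by both thus lay within each other's counting intervals, and with 1 IgG library no test between them was made. The order of the shares depended on the overlap asked for. With at least 50% of a region covered, 215 of 6173 members of replicate 1 (3.48%) and 141 of 3844 of replicate 3 (3.67%) met the list. Of the regions held by both, 135 of 4483 did, a smaller share. Chromosome 10 held 99 of the 455 members that met this list, 14.1% of its members against 7.18% of places. Of its regions held by both, 16.2% met the list, so the high share there was not particular to members. Without chromosome 10 the shares were 3.73% and 3.98%. On the other chromosomes the share ran from 1.78% on chromosome 2 to 8.44% on chromosome 17. A background that the shared control did not remove and CENP-A at the same place cannot be told apart for these members.

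The siNeg IgG list was met by 134 members of replicate 1 (2.17%, 1.84 to 2.57) and 85 of replicate 3 (2.21%, 1.79 to 2.73), against 1.70% and 1.66% of places and 2.33% of all regions. Both IgG lists were met by 3 members of replicate 1 and 4 of replicate 3. Among the widest of these were 7 kb on chromosome 10 from 75694001 to 75701000 in replicate 1, with 5 and 7 kb under siDNAJC9 and siNeg IgG peaks, and 8 kb on chromosome 4 from 185788001 to 185796000 in replicate 3, with 5 and 1 kb. None of the 4 lists outside the siDNAJC9 CENP-A libraries was met by 92.9% of the members of replicate 1 and 92.6% of those of replicate 3, beside 90.3% of the regions held by both. The share over all regions therefore lay between 90.3% and 92.9%, near that of the members. Regions held by both are wider and so meet a list more easily, and the matching share of places was not computed.

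**Figure D5:**
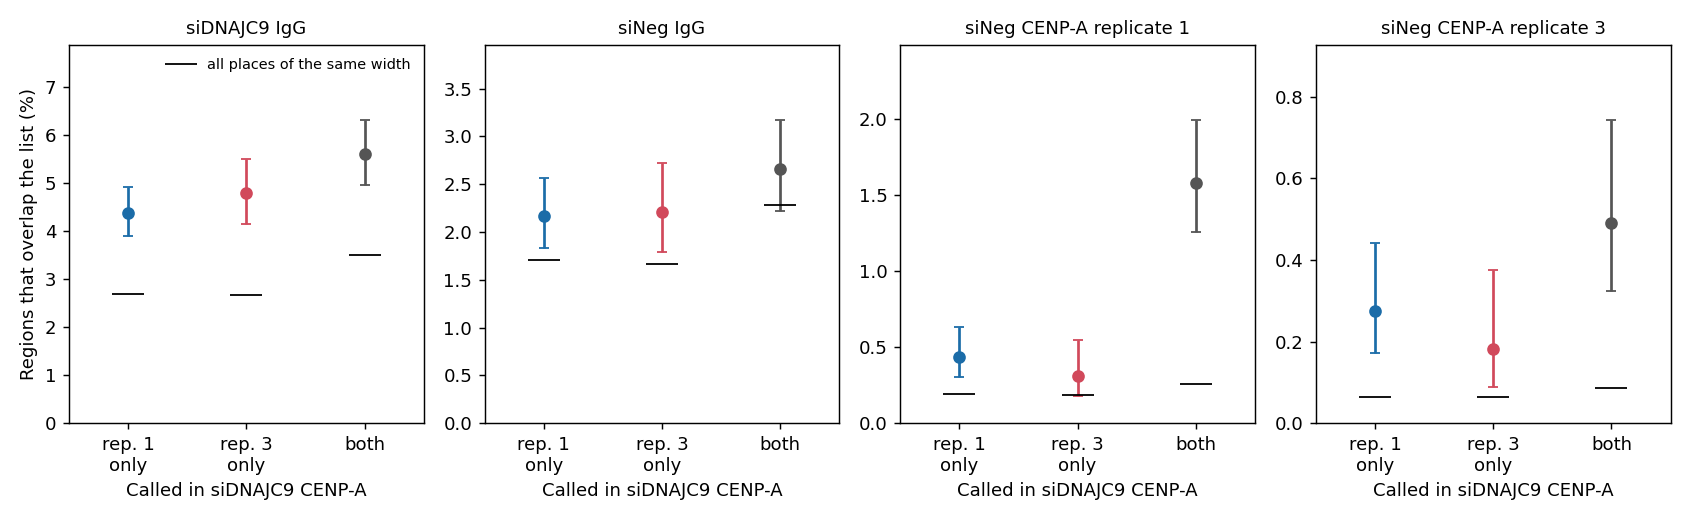
Percentage of siDNAJC9 CENP-A regions (y axis) that overlap each of 4 other lists by at least 1 bp, for members of replicate 1, members of replicate 3 and regions held by both (x axis), with 95% Wilson intervals; black dashes give the percentage of all places of the same width. For the siDNAJC9 IgG list, members stand at 4.39% and 4.79% and regions held by both at 5.60%; for siNeg CENP-A replicate 1 they stand at 0.437%, 0.312% and 1.58%.

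Few members coincided with CENP-A peaks of control cells. A peak of siNeg CENP-A replicate 1 was met by 27 members of replicate 1, or 0.437% (0.301 to 0.636), and 12 of replicate 3, or 0.312% (0.179 to 0.545), beside 0.759% of all regions and 1.58% (1.26 to 1.99) of those held by both. A peak of siNeg CENP-A replicate 3, which played no part in the rule, was met by 17 members of replicate 1 (0.275%, 0.172 to 0.441) and 7 of replicate 3 (0.182%, 0.0882 to 0.375), beside 0.317% of all regions and 0.491% (0.324 to 0.742) of those held by both. Relative to places of the same widths, members of replicates 1 and 3 met siNeg replicate 1 peaks 2.31 (1.59 to 3.36) and 1.68 (0.961 to 2.93) times as often, and regions held by both 6.07 (4.82 to 7.64) times. For siNeg replicate 3 the ratios were 4.27 (2.67 to 6.83), 2.88 (1.39 to 5.93) and 5.64 (3.73 to 8.53). The counts are small, and for siNeg replicate 3 the intervals of all 3 classes overlapped. Among the widest members that met a control peak were 13 kb on chromosome 9 from 32438001 to 32451000 in replicate 1, with 4 kb under siNeg replicate 1 and 5 kb under siDNAJC9 IgG, and 10 kb on chromosome 5 from 45158001 to 45168000 in replicate 3, with 4 kb under siNeg replicate 3. Seen from the control cells, 27 of the 442 noncentromeric peaks of siNeg replicate 1 met a replicate 1 member, 12 a replicate 3 member, 71 a region held by both and 332 no siDNAJC9 CENP-A region. For the 139 peaks of siNeg replicate 3 these numbers were 17, 7, 22 and 93. Peaks that met no siDNAJC9 CENP-A region were thus 75.1% and 66.9%. The 3 classes of regions covered 1.45%, 0.839% and 1.62% of the sequence outside the windows. The matching share of places was not computed for control peaks, and by the ratios above, meetings were more frequent than for places.

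The same rule was then applied to the siNeg CENP-A libraries. These values are a description with no test, since the libraries of an siRNA define each other's one-library calls. The rule gave 423 regions of replicate 1 only and 120 of replicate 3 only, with 19 held by both. All noncentromeric peaks numbered 10699 and 8409 in siDNAJC9 replicates 1 and 3, and 442 and 139 in siNeg replicates 1 and 3. One-library regions were 18.4 times as many with siDNAJC9 (5008.5 ± 1647, SD, n = 2) as with siNeg (271.5 ± 214, SD, n = 2). The counts of both siDNAJC9 libraries lay above those of siNeg. With peaks under 7 kb left out of both lists before merging, one-library regions numbered 3503 and 1655 with siDNAJC9 and 50 and 16 with siNeg. These counts include wide peaks whose only partner in the other library was under 7 kb. As a share of the noncentromeric peaks of a library, one-library calls were 57.7% (56.8 to 58.6) and 45.7% (44.7 to 46.8) in siDNAJC9 replicates 1 and 3, and 95.7% (93.4 to 97.2) and 86.3% (79.6 to 91.1) in siNeg replicates 1 and 3. The difference, siDNAJC9 minus siNeg, was -39.3 percentage points, and both siDNAJC9 libraries were below the siNeg ones. With the same peaks left out, the share was 59.98% and 41.4% against 74.6% and 48.5%, so that the siRNAs overlapped. The difference, siDNAJC9 minus siNeg, was then -10.9 percentage points. Wide peaks that lost a narrower partner count as one-library calls here, so these shares cannot be set beside the shares by width above. The siNeg lists were also far shorter than the siDNAJC9 lists, and the part of list length in this share was not tested. The 5-kb width took 70.9% and 68.3% of the siNeg one-library regions, against 40.5% and 50% with siDNAJC9. The difference was -24.4 percentage points (siDNAJC9 minus siNeg), with no overlap between siRNAs. It was not particular to one-library regions. Over all noncentromeric peaks, 3163 of 10699 and 2890 of 8409 spanned 5 kb with siDNAJC9. In siNeg, one-library calls made up 423 of 442 and 120 of 139 peaks, with 300 and 82 of them at 5 kb. Of the 19 other peaks of each siNeg library, 1 and 2 spanned 5 kb.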

How the data were processed

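Peaks of 6 CUT&RUN libraries (2 CENP-A and 1 IgG per siRNA) were analysed, with groups and replicate numbers from the sample labels. Per the methods, the authors trimmed reads with Cutadapt, aligned them with bowtie2 to T2T-CHM13v2.0, removed duplicates with Picard and called broad peaks with GoPeaks with E. coli spike-in normalization. There is 1 list per library, and the names of the lists give a further IgG library as the control. The deposited lists give only the start and end of each peak in bp, without read count, height or P value, so depth cannot be read from them. bcl2fastq, Bowtie and the build are also in the processing notes of the submitters.

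The members, lists and measures were chosen with earlier results of these data known. Chromosome ends were the highest position in any list, and tied windows were resolved to the middle one. Places were enumerated in full at 1-kb steps, not drawn. Bins with under 2500 kb outside the window were left out. Shares carry 95% Wilson intervals, and a share of 0 the limit of 3 counts. Exact permutation tests over libraries had been planned between siRNAs, but their p-values are not given, because the calls that chose the members also give these values and the libraries of an siRNA define each other's. Regions were named by rule: the 5 widest and 5 most distant per library, those at the limit of the rule, the widest that met both IgG lists or a control peak, and the 3 fullest bins; the longest series of members and single chromosomes were chosen after their values were seen. Alternatives varied the windows, least width, joining, overlap, IgG peaks, chromosome 10, distance and places. Interval functions were tested on simulated data. Peaks were not assigned to genes, repeats or sequence, because the reference tables at hand are of GRCh38. Python 3.11.15, numpy 2.4.6, pandas 2.3.3, scipy 1.17.1 and matplotlib 3.10.9 were used.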

Additional observations from a re-analysis of the deposited data

How the results depend on the processing

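Of 87 values computed under alternatives, 71 counted as unchanged, 16 moved and none reversed. Unchanged meant the same direction for differences between siRNAs, and for member numbers a fold change within a fixed limit. For the other values it meant staying within the spread of both libraries. Only the differences between siRNAs could have reversed. With peaks of at least 7 kb, narrower peaks were left out of both lists before merging. A wider peak whose only partner was narrower thus counted as a member. Members then numbered 3503 in replicate 1 and 1655 in replicate 3, and their median width was 8 kb. The changes in number and median width follow from this filter. Of these members, 11.1% lay within 10 kb of the other library (2.97 times the places), 5.08% met the siDNAJC9 IgG list and 0.802% a siNeg CENP-A peak (means of 2 libraries, as below). The difference of the one-library share between siRNAs was -10.9 instead of -39.3 percentage points, and the log2 ratio of the numbers was 6.29. The other main values were 5.75 kb, 16.1%, 2.29 times, 4.59% and 0.571%. Joining peaks within 5 kb left 6.97% within 10 kb, by construction, since nearer pairs were merged. Midpoint distances gave 5.52%, lower because they exceed edge distances, and 1.96 times the places, a change whose cause was not tested; places of the same 5-Mb bin gave 1.84 times. The siDNAJC9 IgG share was 3.85% without chromosome 10 and 3.58% (2.38 times the places) where at least 50% of a member had to be covered. The siNeg CENP-A share was 0.385% with that demand and 0.457% with 5 Mb added to either side of each window. Where no cause is given, it was not tested. The comparison with places of the same bin for IgG, 1.79 times, was added after the data had been seen. Pairing libraries by replicate number (replicate block) enters only the planned permutation tests. It cannot change the differences, with log2 ratio 4.21 for the number of members, so its values count among the 71 by construction. Deviations of same-numbered libraries had a correlation of 0.018 over 593 bins. With only 442 and 139 noncentromeric peaks in siNeg replicates 1 and 3, this correlation cannot decide whether the libraries are pairs. The numbers were not taken as pairs. Leaving out a replicate was not run, because membership needs both libraries of an siRNA. Without read counts or peak heights, a weak peak below the caller's threshold and an absent one cannot be told apart.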
